A study of Mus musculus with 7 samples.

Results

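The potassium channel genes of the mouse were followed in prefrontal cortex taken at 8 weeks from males of the C57BL/6J strain. The members were chosen by name, as the genes whose GENCODE M21 symbol begins with Kcn and whose type is protein-coding, and 94 of the 43626 gene identifiers in the deposited table met that rule. By symbol they fell into 30 voltage-gated genes (Kcna, Kcnb, Kcnc, Kcnd, Kcnh and Kcnq), 15 inward rectifiers (Kcnj), 14 two-pore channels (Kcnk), 11 in the calcium-activated group (Kcnm, Kcnn and Kcnt) and 24 auxiliary, silent and other genes. The bulk RNA-seq libraries came from 4 mouse samples labelled hDISC1AA/+ and 3 labelled wild type (WT). The study concerns the phosphorylation of DISC1, a scaffold protein of neurons, and the labels give the genotype only as hDISC1AA/+, without the construct, the promoter or the breeding. No treatment was labelled. The labels do not say that each sample came from a separate mouse, so a p-value here reflects only how these 7 samples spread, and that spread may be technical.

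Potassium channels let potassium ions leave or enter the cell and pull the membrane potential of a neuron towards its resting level. Voltage-gated members repolarize the action potential and set how fast a neuron can fire, inward rectifiers and two-pore channels hold the resting potential, and calcium-activated members follow the calcium that enters during firing. Each pore is lined by a short selectivity filter, in most families a glycine-tyrosine-glycine stretch, through which potassium passes and sodium does not. Auxiliary subunits have no pore of their own and change the gating or transport of the channels to which they bind.

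The filter is a feature that the pore-forming genes share. Its coding bases are printed here for genes on which the results turn, with examples of other families. The symbols name potassium channel families, so the share of Kcn genes with a filter is a description and no test. A search in frame was made for the codons NTN, GGN, TAN and GGN in a row, which code a valine, isoleucine or similar residue followed by glycine, tyrosine and glycine, and for NTN, GGN, TTN and GGN, in which the tyrosine is replaced by phenylalanine or leucine. The search used the coding strand of the longest coding sequence of each gene in GENCODE M21, 5′ to 3′. The capitals mark the match, and the lower-case bases are the 3 codons on each side.
Kcna1: atgaccactGTGGGATACGGTgacatgtac
Kcna2: atgacaactGTAGGCTATGGAgacatggtt
Kcnma1: atgtctacaGTGGGTTATGGGgacgtttat
Kcnj10: cagaccaccATCGGCTATGGCttccgctac
Kcnj3: gaggccaccATCGGCTATGGCtaccgctac
Kcnf1: atgaccacaGTGGGCTATGGTgacatctac
Kcnh7: ctaaccagtGTAGGATTTGGAaatgtgtct
Kcnt1: ttctcaactGTGGGCTTCGGTgatgtgacg
Kcnk3, first pore: atcaccaccATCGGCTATGGTcatgcggcg
Kcnk3, second pore: ctcaccaccATCGGCTTCGGCgactatgtg
A match was present in 75 of the 94 Kcn genes (79.8%) and in 5.02% of 21490 other protein-coding genes. All 30 voltage-gated genes and all 15 inward rectifiers held it. Of the 14 two-pore genes 12 held a match and 11 held at least 2, 1 for each of their pore domains as in Kcnk3. In the calcium-activated group 7 of 11 matched, and the others were the beta subunits Kcnmb1, Kcnmb2, Kcnmb3 and Kcnmb4, which have no pore. The 11 matches among 24 auxiliary and other genes were the silent voltage-gated-like subunits, such as Kcnf1, and Kcnu1. No match was found in the Kcnab, Kcne or Kcnip genes or in Kcnrg. The form with phenylalanine or leucine appeared in 24 Kcn genes. These were 8 voltage-gated genes, such as Kcnh7, an ether-a-go-go related channel, 11 two-pore genes, 2 inward rectifiers, 2 genes of the calcium-activated group, such as Kcnt1, a sodium-activated channel, and 1 of the auxiliary and other genes. These matches describe the letters only.

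The libraries held 33512557 to 36005116 reads assigned to genes in hDISC1AA/+ and 34572903 to 63845254 in WT, with WT replicate 1 the deepest. The heading of 1 column ends like the hDISC1AA/+ titles but matches none of them, and its library is named here the unnumbered hDISC1AA/+ library. A normalized count is the deposited value, a read count divided by 1 size factor per library. Libraries hDISC1AA/+ replicate 1 and WT replicate 1 stood apart from the rest. A deviation is here the log2 normalized count in 1 library minus the mean of the other 6. The SD of the deviations over the 82 tested Kcn genes was 0.71 in hDISC1AA/+ replicate 1 and 0.65 in WT replicate 1, with 0.18 to 0.43 elsewhere. Over all 17670 tested genes it was 0.59 in hDISC1AA/+ replicate 1 and 0.66 in WT replicate 1. In WT replicate 1 the summed normalized count of 10 oligodendrocyte markers was 141186, against 40571 to 47388 in the hDISC1AA/+ libraries and 42784 and 52553 in the other WT libraries. All 10 of these markers were lower in hDISC1AA/+ on average and none was at 0. For 10 astrocyte markers, again all lower in hDISC1AA/+ on average, the sums were 133086 to 171115 in hDISC1AA/+ and 159099 to 236911 in WT. For 10 endothelial and mural markers, all higher in hDISC1AA/+ on average, they were 11678 to 14799 in hDISC1AA/+. Only WT replicate 1 was far lower, at 5183, while WT replicates 2 and 3 had 11569 and 14689. The sum of 10 interneuron markers was lowest for hDISC1AA/+ replicate 1, at 26966, with 35465 to 45667 elsewhere. Pvalb and Lhx6 of that list were nevertheless highest in this library. It also had the highest sum of 10 choroid plexus markers, 1267, against 277 to 746 elsewhere. Its Ttr value was 758, against 14.2 to 41.5. Excitatory neuron markers, which check the labelled tissue, summed to 244417 to 324122 in hDISC1AA/+ and 270668 to 310244 in WT. The part of these markers in any result below was not tested. In bulk tissue, fewer cells of a type and less RNA per cell cannot be told apart.

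The cortex expressed most of the potassium channel genes, over a wide range of levels. Level is given per length, as RPKM, the recovered reads per kilobase of merged exons scaled to the depth of the library, averaged over the 7 libraries. Of the 94 genes 29 had a level of at least 10, 38 had a level of 1 to under 10, and 27 lay under 1. The 10 highest genes held 47.3% of the summed level. Kcnab2, the beta subunit of the Kv1 channels of axons, was the highest at 86.0, with 75.0 to 102 in hDISC1AA/+ and 76.4 to 97.4 in WT. The inward rectifier Kcnj4 (Kir2.3) followed at 70.9, and Kcnf1, an electrically silent subunit that assembles with Kv2, at 51.4. Kcnj9 (Kir3.3), a subunit of the channels opened by G proteins, had 43.1. The two-pore channel Kcnk1 had 39.5. Kcnip2 and Kcnip3, calcium-binding proteins that attach to Kv4 channels, had 37.9 and 36.6, and the silent subunit Kcnv1 had 37.0. The voltage-gated leaders were Kcnh3 (35.4) and Kcna1 (35.2). Kcnj10 (Kir4.1), which takes up potassium in astrocytes, had 35.1. The calcium-activated group was led by Kcnt1 at 12.7, Kcnt2 at 6.55 and Kcnma1 at 6.16.

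Each family took nearly the same part of the summed level in both groups. Voltage-gated genes held 37.0 ± 0.95% in hDISC1AA/+ (SD, n = 4) and 35.6 ± 2.78% in WT (SD, n = 3). Inward rectifiers held 20.3 ± 0.50% in hDISC1AA/+ and 20.5 ± 0.68% in WT. Two-pore genes held 7.27 ± 0.33% in hDISC1AA/+ and 7.76 ± 0.90% in WT. The calcium-activated group held 3.64 ± 0.21% in hDISC1AA/+ and 3.63 ± 0.23% in WT. The auxiliary and other genes held 31.8 ± 1.083% in hDISC1AA/+ and 32.6 ± 1.40% in WT. Each difference was smaller than the larger SD of the 2 groups.

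**Figure D1:**
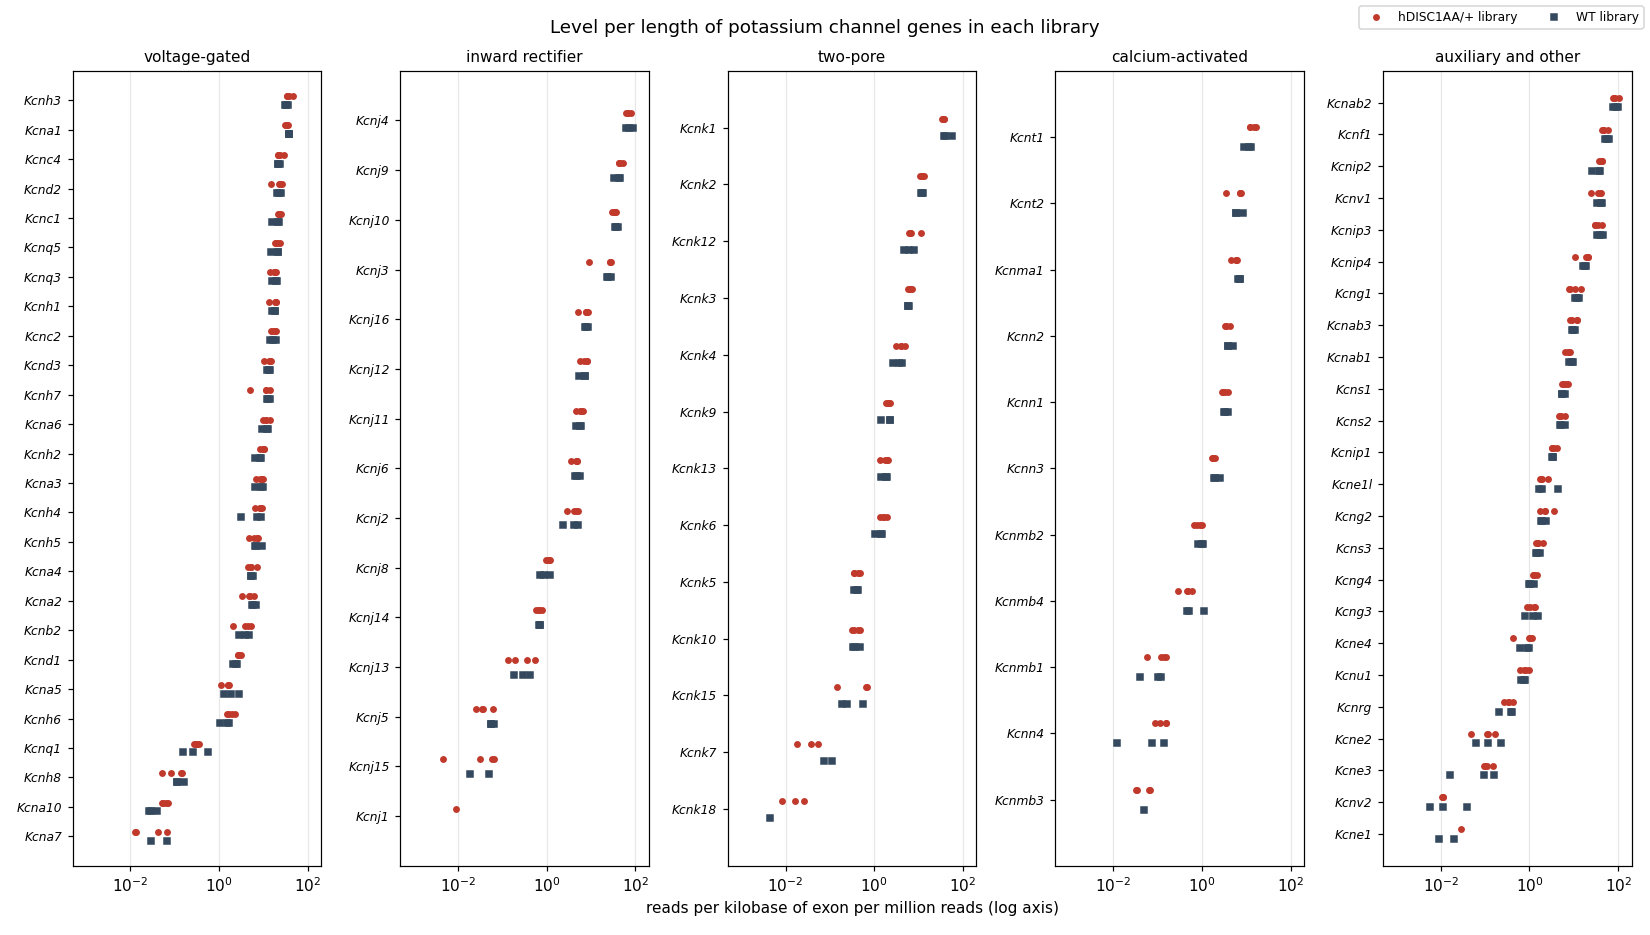
Level per length of the Kcn genes in each library on a log axis, in RPKM, with hDISC1AA/+ libraries as red circles above the WT libraries as dark squares; a library at 0 is not drawn, so Kcnk16, with 0 reads, has no row, and the few genes not reported here are not drawn. Most genes spread over a narrow range beside the distance from Kcnab2 at 86.0 to the genes under 1, and single points of Kcnj3, Kcnh7 and Kcnt2 lie left of the other hDISC1AA/+ libraries.

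The promoters of the genes differed in CpG content along with these levels. RefSeq windows of GRCm38.p6, from 250 bases before a RefSeq start to 50 after it, were found for 69 of the 94 genes. These starts can differ from the GENCODE gene ends printed below, and the windows of Kcna2 and Kcnma1 lie inside the GENCODE genes. Where a gene had several windows, that with the most CpGs was used. The median number of CpGs was 20 in the 33 genes with a level of at least 5, 14 in the 14 genes with a level of 1 to under 5, and 8.5 in the 22 genes under 1. Over all 27025 genes with a window it was 8. The Spearman correlation of CpG number and level over the 69 genes was 0.39, a description across genes that share the same libraries. Kcnma1, with 36 CpGs, and Kcna2, with 31, are shown because both were lower in hDISC1AA/+ in the comparison below, and Kcnk16, with 2, because no read was assigned to it. The capitals mark each CG dinucleotide.
Kcnma1, chr14:24004156-24004455, minus strand: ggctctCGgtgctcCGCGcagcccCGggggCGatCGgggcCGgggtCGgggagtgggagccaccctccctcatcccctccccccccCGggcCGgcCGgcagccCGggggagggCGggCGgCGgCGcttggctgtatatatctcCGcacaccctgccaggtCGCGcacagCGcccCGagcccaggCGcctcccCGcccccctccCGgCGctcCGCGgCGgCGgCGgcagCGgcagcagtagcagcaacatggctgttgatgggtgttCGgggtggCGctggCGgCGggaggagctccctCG
Kcna2, chr3:107101317-107101616, plus strand: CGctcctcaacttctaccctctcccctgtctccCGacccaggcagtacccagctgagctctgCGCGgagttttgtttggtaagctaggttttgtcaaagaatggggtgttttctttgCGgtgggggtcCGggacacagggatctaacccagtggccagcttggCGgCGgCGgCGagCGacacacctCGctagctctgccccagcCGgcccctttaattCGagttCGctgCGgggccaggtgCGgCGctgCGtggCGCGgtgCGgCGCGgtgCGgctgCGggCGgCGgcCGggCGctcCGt
Kcnk16, chr14:20269220-20269519, minus strand: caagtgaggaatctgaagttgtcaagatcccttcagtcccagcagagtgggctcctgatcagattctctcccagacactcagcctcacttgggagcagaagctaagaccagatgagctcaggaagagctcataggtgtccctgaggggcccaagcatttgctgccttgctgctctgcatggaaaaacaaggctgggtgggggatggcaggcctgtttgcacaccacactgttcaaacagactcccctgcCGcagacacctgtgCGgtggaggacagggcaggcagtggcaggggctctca
The GC box GGGCGG, searched on both strands, was present in 47.9% of the 94 Kcn windows and in 35.7% of all 32851 windows. The TATA motif TATAAA was present in 5.32% of the Kcn windows and in 13.6% of all windows. The E-box CACGTG was present in 7.45% and 7.15%. The cyclic AMP response element TGACGTCA was present in 0.0% of the Kcn windows and in 1.79% of all windows. No motif here contains another, and a match is a description of the window.

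The comparison of hDISC1AA/+ with WT asked which transcript levels in the prefrontal cortex went with the genotype. No potassium channel gene passed the threshold of 0.05 on limma's adjusted p, 0 of the 82 tested, beside 0.0% of the 17670 genes tested across the table. The smallest adjusted p in the table was 0.974. At an unadjusted limma p under 0.05 stood 6 of the 82 Kcn genes (7.32%), against 2.44% of all tested genes. Of these 5 were lower in hDISC1AA/+, among them Kcna1, Kcna2, Kcnma1 and Kcnn3, beside 1.3% of all tested genes. The remaining 1 was higher, beside 1.14% of all tested genes. The count was 6 with edgeR, where 2.58% of 17540 genes were under that p. It was 13 with limma-voom and sample quality weights, where 7.66% of 17670 genes were. With DESeq2 it was 7, where 2.13% of 28315 genes were, a set without the filter on low values. The numbers of Kcn genes in the edgeR and DESeq2 fits are not given here, so these shares are not directly comparable. The limma count varied with single libraries left out, being 1 without WT replicate 1, 2 without the unnumbered hDISC1AA/+ library and 10 without WT replicate 2. The shares of all tested genes in those fits are not given here, so these counts describe no trait of Kcn genes. The groups did not overlap in 4 of the 82 Kcn genes (4.88%), beside 5.04% of all tested genes. Of these 3 were lower in hDISC1AA/+ (2.84% of all tested genes), Kcna1 and Kcnma1 among them, and 1 was higher (2.2% of all tested genes). The estimate was below 0 in 52 of the 82 Kcn genes (63.4%), against 52.2% of all tested genes, and the median log2 fold change was -0.06, against -0.01 over all tested genes. Over the 19 alternative settings 45 to 57 Kcn genes were lower, and their median was -0.11 to -0.03. The genes tested differed between settings, so these counts share no denominator, and the matching shares of all genes are not given here. The 95% confidence interval lay within 1.5-fold either way for 41 of the 82 Kcn genes, against 54.0% of all tested genes, and within 2-fold for 70 (85.4%), against 77.4%.

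**Figure D2:**
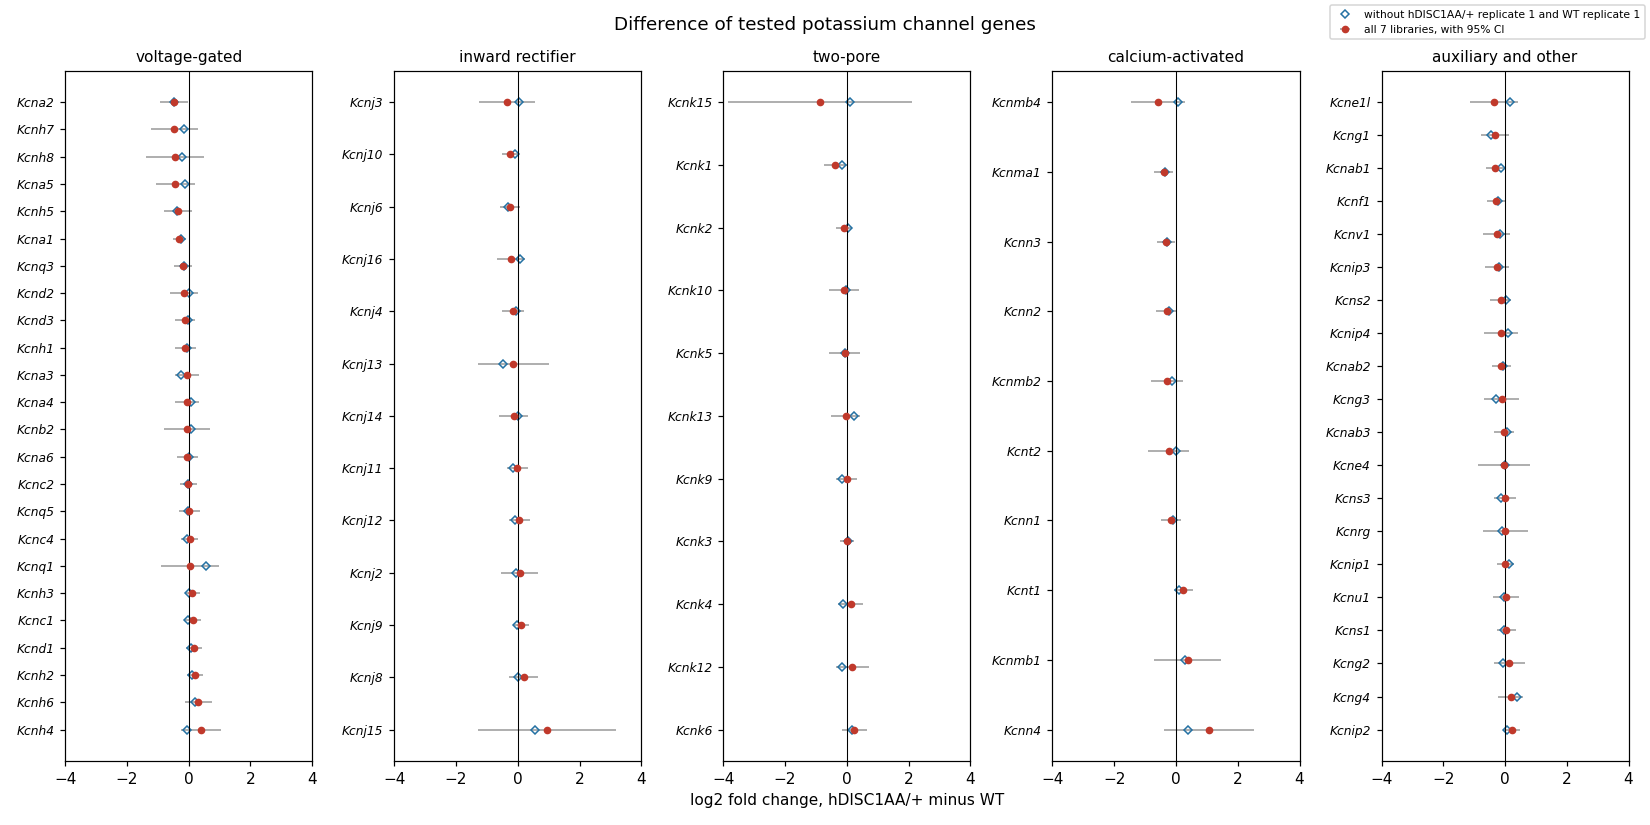
Log2 fold change of 78 of the 82 tested Kcn genes, hDISC1AA/+ minus WT, by family, with filled circles and 95% confidence intervals for all 7 libraries and open diamonds for the fit without hDISC1AA/+ replicate 1 and WT replicate 1. The widest intervals belong to genes with few reads such as Kcnk15, Kcnj15 and Kcnn4.

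Among the voltage-gated genes 28 of 30 were tested, 17 were lower and 11 higher in hDISC1AA/+, and the median log2 fold change was -0.05, or 0.02 without hDISC1AA/+ replicate 1. In each sequence of values that follows, the hDISC1AA/+ libraries are replicate 1, the unnumbered library, replicate 3 and replicate 4, and the WT libraries are replicates 1 to 3. Kcna1 (ENSMUSG00000047976; GRCm38 chr6:126640397-126646384, minus strand) encodes Kv1.1, a low-threshold channel of axons. It had 5645, 5283, 5935 and 6177 normalized counts in hDISC1AA/+, against 7507, 6801 and 6934 in WT. Every hDISC1AA/+ library lay below every WT library. The means were 5759.7 ± 385 in hDISC1AA/+ (SD, n = 4) and 7081 ± 375 in WT (SD, n = 3). Its log2 fold change was -0.30 (95% confidence interval -0.51 to -0.09), with a limma unadjusted p of 0.0099 and an adjusted p of 0.974. Over the 19 alternative settings the estimate ranged over -0.33 to -0.25, the unadjusted p stayed under 0.05 in 19, and the adjusted p was 0.642 to 0.9997. Kcna2 (ENSMUSG00000040724; chr3:107101146-107115005, plus strand) encodes Kv1.2, which assembles with Kv1.1. It had 2044, 1377, 2089 and 2639 in hDISC1AA/+, against 2823, 2415 and 3085 in WT. The groups overlapped, with replicate 4 of hDISC1AA/+ above WT replicate 2 and the unnumbered library the lowest of all. The log2 fold change was -0.48 (interval -0.93 to -0.02), with an unadjusted limma p of 0.0427 and an adjusted p of 0.974, and the unadjusted p was under 0.05 in 9 of the 19 alternatives.

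Without WT replicate 1, the library with the high glial marker sums, the estimates were -0.26 for Kcna1 and -0.46 for Kcna2 (unadjusted limma p 0.101). Over the 7 fits with 1 library left out, the Kcna2 estimate ranged over -0.61 to -0.30. Its unadjusted limma p was under 0.05 in 2 of these 7, against 7 of 7 for Kcna1. Both kept their sign in all 19 alternatives, which reuse the libraries that gave their small p.

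**Figure D3:**
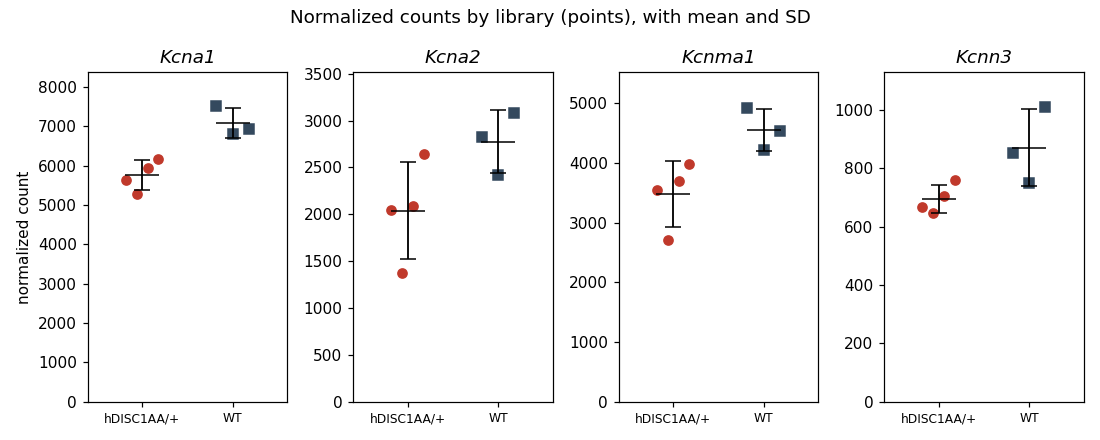
Normalized counts of Kcna1, Kcna2, Kcnma1 and Kcnn3, 4 of the 6 Kcn genes with an unadjusted limma p under 0.05, with 1 point per library and the mean and SD of each group, and each axis starting at 0. The hDISC1AA/+ points lie below all WT points for Kcna1 and Kcnma1, and overlap them for Kcna2 and Kcnn3.

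Kcnh3 (Kv12.2), a channel of forebrain neurons with the highest level of the voltage-gated genes, had 9206, 7611, 7541 and 7161 normalized counts in hDISC1AA/+, against 7082, 7010.3 and 7693 in WT. The groups overlapped, and the log2 fold change was 0.11 (interval -0.13 to 0.35), an interval that excludes a change of 1.5-fold either way, and 0.04 without hDISC1AA/+ replicate 1, its highest library. Among Kv3 genes of fast-firing neurons the estimates were 0.13 for Kcnc1 (interval -0.14 to 0.40), -0.02 for Kcnc2 and 0.03 for Kcnc4. The estimate of Kcnc1 was -0.04 without hDISC1AA/+ replicate 1 and WT replicate 1. Kcnd2 (Kv4.2), the A-type channel of dendrites, had 2668, 4309, 4384 and 5011 in hDISC1AA/+, against 4265, 4726 and 4256 in WT. Its estimate was -0.15 with all libraries and 0.05 without hDISC1AA/+ replicate 1, the library with the low value.

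Of the inward rectifiers 13 of 15 were tested, 8 were lower and 5 higher in hDISC1AA/+, and none had an unadjusted p under 0.05. The median log2 fold change was -0.14, and 0.00 with edgeR. Kcnj10 (ENSMUSG00000044708; chr1:172341210-172374085, plus strand) had the smallest p of the family. It had 5789, 6291, 7308 and 7007 normalized counts in hDISC1AA/+, against 8973, 7218 and 7470.3 in WT. The groups overlapped only in that replicate 3 of hDISC1AA/+ was above WT replicate 2. Its log2 fold change was -0.26 (interval -0.52 to 0.01; unadjusted limma p 0.0579, adjusted p 0.974), and -0.10 without hDISC1AA/+ replicate 1 and WT replicate 1. WT replicate 1, its highest library, also had the highest astrocyte marker sum, 236911, and hDISC1AA/+ replicate 1, its lowest, the lowest sum, 133086. Of the summed markers, Slc1a2, Slc1a3, Gja1, Aqp4 and Sox9 were lowest in hDISC1AA/+ replicate 1, and Aldh1l1, Gfap, S100b, Fgfr3 and Gjb6 were not. Kcnj16 (Kir5.1), which pairs with Kir4.1, had 694, 1099, 1172 and 1217 in hDISC1AA/+, against 1381, 1071 and 1139.9 in WT, and an estimate of -0.22. That of Kcnj16 was -0.03 without hDISC1AA/+ replicate 1, its lowest library, and 0.07 without hDISC1AA/+ replicate 1 and WT replicate 1.

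The products of the Kir3 genes form channels opened by G protein-coupled receptors, and for Kcnj3 1 library set the estimate. Kcnj3 (Kir3.1; chr2:55435970-55598145, plus strand) had 1688, 5213, 5327 and 5105 in hDISC1AA/+, against 4829.7, 5625 and 4667 in WT. The 3 hDISC1AA/+ libraries other than replicate 1 lay within the WT range. The estimate was -0.35 (interval -1.26 to 0.55) with all libraries and 0.05 without hDISC1AA/+ replicate 1. Kcnj9 had 7951, 6633, 7181 and 6755 in hDISC1AA/+, against 5704, 7004 and 7088 in WT, and 0.12 (interval -0.14 to 0.37), or 0.01 without WT replicate 1, its lowest library. Kcnj6 (Kir3.2) had 1294, 982, 1424 and 1322 in hDISC1AA/+, against 1367, 1419.7 and 1637 in WT, and -0.24 (interval -0.56 to 0.08; unadjusted limma p 0.124), with -0.26 without hDISC1AA/+ replicate 1 and -0.29 without WT replicate 1. Kcnj4 had 6135, 4750.1, 5557 and 5295 in hDISC1AA/+, against 7737, 4939 and 5814 in WT, and its estimate of -0.16 became 0.01 without WT replicate 1.

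Of the two-pore genes 11 of 14 were tested, 7 were lower and 4 higher in hDISC1AA/+, with a median log2 fold change of -0.03 and none at an unadjusted p under 0.05. Kcnk1 (TWIK-1; chr8:125995170-126030685, plus strand) had 2875, 2893, 3204 and 2741 normalized counts in hDISC1AA/+, against 5156, 3147 and 3343 in WT. WT replicate 1 stood far above the other 6 libraries, and replicate 3 of hDISC1AA/+ lay above WT replicate 2. The log2 fold change was -0.37 (interval -0.75 to 0.00; unadjusted limma p 0.0511) and -0.15 without WT replicate 1, the library with the highest oligodendrocyte marker sum. Kcnk2 (TREK-1), a channel opened by stretch and lipids, had 1893, 2081, 2417 and 2142 in hDISC1AA/+, against 2538, 2108 and 2208 in WT, and -0.10, or -0.02 without WT replicate 1. Kcnk3 (TASK-1), an acid-sensitive leak channel, had 974, 908, 948 and 852 in hDISC1AA/+, against 958, 907 and 867 in WT. The Kcnk3 estimate was 0.01 (interval -0.21 to 0.24). Kcnk6 and Kcnk12 had estimates of 0.23 and 0.18, both with overlapping groups. That of Kcnk6 was 0.12 without WT replicate 1, and that of Kcnk12 was -0.02 without hDISC1AA/+ replicate 1.

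In the calcium-activated group 10 of 11 genes were tested, 7 were lower and 3 higher in hDISC1AA/+, and the median log2 fold change was -0.27. Kcnma1 (ENSMUSG00000063142; chr14:23289431-24014491, minus strand) encodes the pore of the BK channel, which opens to voltage and calcium together. It had 3548, 2706, 3699 and 3981 normalized counts in hDISC1AA/+, against 4912, 4213 and 4538 in WT, with no overlap. The means were 3484 ± 548 in hDISC1AA/+ (SD, n = 4) and 4555 ± 349.8 in WT (SD, n = 3). The log2 fold change was -0.40 (interval -0.71 to -0.09), with an unadjusted limma p of 0.0181 and an adjusted p of 0.974, and the unadjusted p was under 0.05 in 16 of the 19 alternatives. Without WT replicate 1 the estimate was -0.34. Over the 7 fits with 1 library left out it ranged over -0.47 to -0.28, with an unadjusted limma p under 0.05 in 6. Kcnn3 (SK3; ENSMUSG00000000794; chr3:89520164-89675132, plus strand), a small-conductance channel opened by calcium, had 667, 649, 706 and 760.2 in hDISC1AA/+, against 854, 749.7 and 1010.2 in WT. Only replicate 4 of hDISC1AA/+ reached the WT range. The log2 fold change was -0.32 (interval -0.60 to -0.03, unadjusted limma p 0.0347, adjusted p 0.974), and the unadjusted p was under 0.05 in 12 of the 19 alternatives. Over the 7 fits with 1 library left out the Kcnn3 estimate ranged over -0.42 to -0.20. The unadjusted limma p was under 0.05 in 2 of these 7. Kcnn2 (SK2) had 1138, 949.8, 991 and 919 in hDISC1AA/+, against 1538, 1098 and 1107 in WT, and -0.31 (interval -0.63 to 0.02; unadjusted limma p 0.0631). Its estimate was -0.15 without WT replicate 1. The sodium-activated pair differed in sign, at 0.24 for Kcnt1 (interval -0.08 to 0.55) and -0.24 for Kcnt2 (interval -0.90 to 0.42). That of Kcnt1 was 0.10 without WT replicate 1. Kcnt2 had 848, 1817, 1854 and 1894 in hDISC1AA/+, against 1694, 2250.2 and 1531 in WT, and its estimate was 0.04 without hDISC1AA/+ replicate 1. Kcnmb4, the neuronal beta subunit of BK, had 34.9, 70.6, 62.8 and 57.6 in hDISC1AA/+, against 151, 63.3 and 57.8 in WT. Its estimate of -0.58 became 0.07 without hDISC1AA/+ replicate 1, its lowest library, and WT replicate 1, its highest.

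Of the auxiliary, silent and other genes 20 of 24 were tested, 13 were lower and 7 higher in hDISC1AA/+, with a median log2 fold change of -0.07 and none at an unadjusted p under 0.05. Kcnab1 (chr3:65109384-65378223, plus strand), a beta subunit of Kv1 channels, had 1972, 2232, 2584 and 2659 normalized counts in hDISC1AA/+, against 3346, 2912 and 2537 in WT, and a log2 fold change of -0.31 (interval -0.63 to 0.00; unadjusted limma p 0.0513). The groups overlapped through WT replicate 3. Kcnab2 had 20077, 15030.0, 17709.8 and 16592 in hDISC1AA/+, against 22272, 16082 and 18443 in WT, and -0.12, which became 0.00 without WT replicate 1. Kcnf1 had 9775, 8099.9, 8322 and 7663 in hDISC1AA/+, against 12237, 9859 and 8909 in WT, and -0.28 (interval -0.58 to 0.01; unadjusted limma p 0.0603). Replicate 1 of hDISC1AA/+ lay above WT replicate 3 for Kcnf1, and its estimate was -0.15 without WT replicate 1, its highest library. Kcnip2 had 5263, 5272, 4906 and 5324 in hDISC1AA/+, against 3647, 4846 and 5119.7 in WT, and 0.21 (interval -0.07 to 0.49), and 0.06 without WT replicate 1, its lowest library. Kcnip4, a further Kv4 partner, had 1360.2, 2721, 2918 and 2465 in hDISC1AA/+, against 2436, 2627 and 2388 in WT, and its estimate of -0.13 became 0.12 without hDISC1AA/+ replicate 1. Kcns2, a silent partner of Kv2, had 1010.1, 960.2, 978 and 1277 in hDISC1AA/+, against 1432, 1011 and 1072 in WT, and -0.14, or 0.01 without WT replicate 1.

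The 12 genes that did not reach a normalized count of 10 in 3 libraries were Kcna7, Kcna10, Kcne1, Kcne2, Kcne3, Kcnj1, Kcnj5, Kcnk7, Kcnk16, Kcnk18, Kcnmb3 and Kcnv2. They held 0 to 63 reads each over all 7 libraries. Several are known for other tissues, such as Kcnj1 of the kidney and Kcne1 of the heart and inner ear. Kcna10 had 4.15 to 5.29 normalized counts in hDISC1AA/+ and 2.18 to 3.27 in WT, from 27 reads in all, and was not tested.

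Ratios of subunits that assemble together do not depend on the scaling of libraries, and 10 such pairs were compared by an exact two-sided permutation test over the 35 divisions of the libraries, whose smallest p is 0.0286. The exact p was 0.143 to 0.943, and the adjusted p was 0.943 for every pair; in all 10 the groups overlapped. Kcnab2 over Kcna2 had the smallest p, with 9.82, 10.9, 8.47 and 6.29 in hDISC1AA/+, against 7.89, 6.66 and 5.98 in WT. Kcna1 over Kcna2 was 2.76, 3.83, 2.84 and 2.34 in hDISC1AA/+, against 2.66, 2.82 and 2.25 in WT. The mean log2 ratio of these Kv1 genes differed by 0.18, at an exact permutation p of 0.343. Kcnj9 over Kcnj3 was 4.71 in hDISC1AA/+ replicate 1, against 1.27 to 1.35 in the other hDISC1AA/+ libraries and 1.18 to 1.52 in WT. Among the hDISC1AA/+ libraries Kcnj16 over Kcnj10 was 0.120 for replicate 1 and 0.160 to 0.175 for the rest, against 0.148 to 0.154 in WT. Replicate 1 thus lay below the WT range and the other hDISC1AA/+ libraries above it. Kcnmb4 over Kcnma1 was 0.0101 to 0.0264 in hDISC1AA/+ and 0.0129 to 0.0310 in WT.

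Of 40 genes outside the Kcn names whose products bind, anchor or regulate potassium channels 39 were tested. None passed limma's adjusted threshold, and 28 were lower and 11 higher in hDISC1AA/+ (71.8% lower, against 52.2% of all tested genes), with a median log2 fold change of -0.06. In 5 of the 39 (12.8%, against 5.04% of all tested genes) the groups did not overlap, all lower in hDISC1AA/+ (against 2.84% of all tested genes not overlapping and lower). They were Dlg2, Ank2, Ank3, Snx27 and Lgi1. The partner list was chosen with earlier results of these data known, so its shares beside those of all genes are descriptions and no test. Dlg2 (PSD-93), which anchors Kv1 and Kir channels, was the only one at an unadjusted limma p under 0.05, or 2.56% of the 39, near the 2.44% of all tested genes. It had 9743, 9352, 12536 and 12998 normalized counts in hDISC1AA/+, against 16994, 13334 and 13364 in WT, a log2 fold change of -0.39 (interval -0.73 to -0.05; unadjusted limma p 0.0281, adjusted p 0.974). The next by p were Ank2 (ankyrin-B) at -0.19, Dlg1 (SAP97) at -0.21 and Snx27, a sorting protein that binds Kir3 channels, at -0.16.

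In hDISC1AA/+ replicate 1, 15 of the 82 tested Kcn genes (18.3%) had a deviation below -0.5, against 16.7% of all tested genes. These were Kcnb2, Kcnd2, Kcnd3, Kcnh7, Kcnh8, Kcnip4, Kcnj2, Kcnj3, Kcnj15, Kcnj16, Kcnk15, Kcnmb1, Kcnmb4, Kcnt2 and Kcnv1. Kcnh7 had 2726 normalized counts there, against 6242 to 8041 in the other hDISC1AA/+ libraries and 7324 to 8104 in WT, and Kcnb2 had 1100.0, against 2227 to 2967 in the other hDISC1AA/+ libraries and 1698 to 2666 in WT. The median transcript GC content of the 15 was 43.9%, and that of the other 67 was 54.0%. The deviation in hDISC1AA/+ replicate 1 correlated with GC content at r = 0.42 over the 82 Kcn genes and at r = 0.52 over 17543 genes, both descriptions across genes of 1 library. GC content and length together took up 35.7% of the variance of the deviations over all genes in this library and 2.39% to 11.8% in the other 6. In the unnumbered hDISC1AA/+ library 10 Kcn genes (12.2%) were below -0.5, against 3.55% of all tested genes, and Kcna2 and Kcnma1 were among them. In WT replicate 1 the deviation was below -0.5 in 8 Kcn genes (9.76%, against 16.9% of all tested genes) and above 0.5 in 8 (9.76%, against 10.7%). Kcnj2, Kcnj15 and Kcnmb1 were below -0.5 in both hDISC1AA/+ replicate 1 and WT replicate 1, and Kcnmb4 was low in hDISC1AA/+ replicate 1 and high in WT replicate 1. Kcnh4 was low there, at 506 against 959 to 1262 in hDISC1AA/+ and 1048 and 1282 in the other WT libraries. Kcne1l was high there, at 276 against 99.7 to 141 in hDISC1AA/+ and 96.0 and 111 in the other WT libraries.

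**Figure D4:**
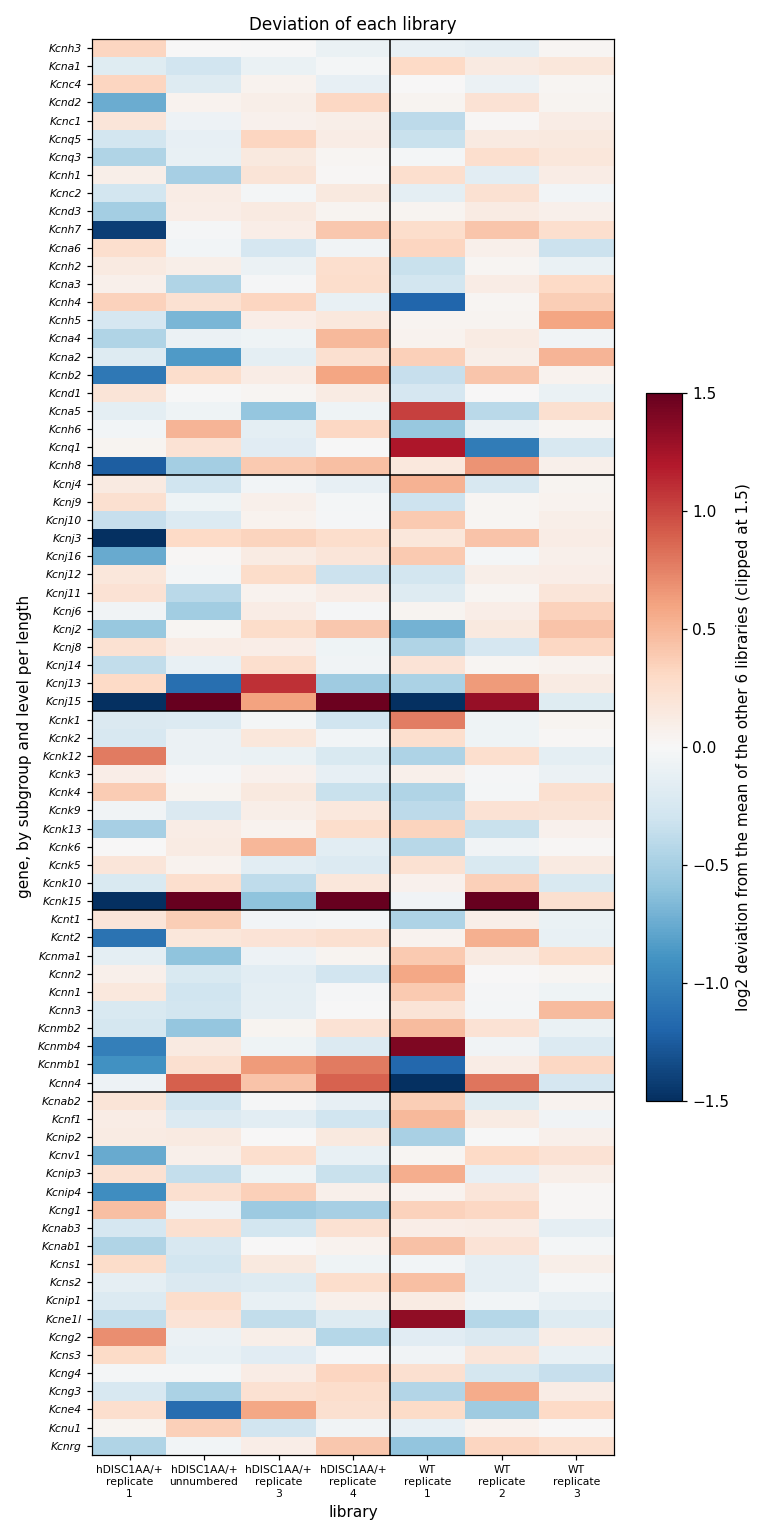
Deviation of 78 of the 82 tested Kcn genes in each library from the mean of the other 6, as log2 normalized count, with the hDISC1AA/+ libraries left of the WT libraries. Colours are clipped at 1.5; the SD over all 82 is 0.71 in hDISC1AA/+ replicate 1 and 0.65 in WT replicate 1, and Kcnj15 and Kcnk15, with few reads, vary in most columns.

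**Figure D5:**
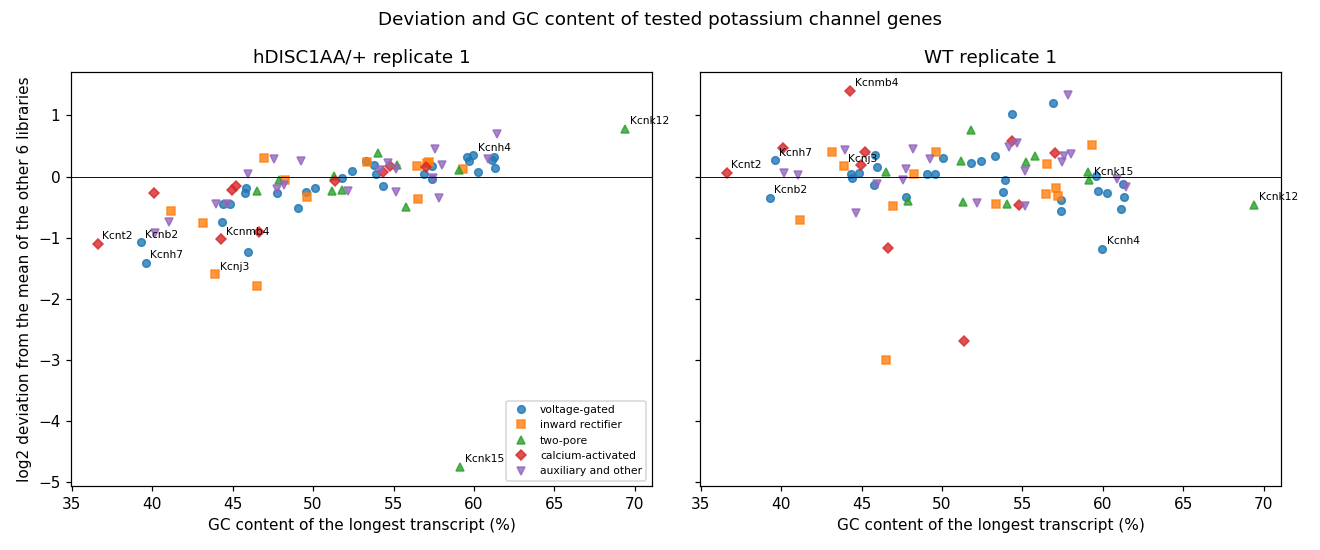
Deviation of the tested Kcn genes against the GC content of the transcript in percent, in hDISC1AA/+ replicate 1 on the left and WT replicate 1 on the right, with 1 point per gene. The points rise with GC content in hDISC1AA/+ replicate 1 (r = 0.42) and show r = -0.02 in WT replicate 1.

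Without hDISC1AA/+ replicate 1 and WT replicate 1, 51 of the 82 Kcn genes were lower in hDISC1AA/+, against 49.98% of all genes tested, and the median log2 fold change was -0.04. The sign was the same as with all libraries in 53 of the 82. The SD of the log2 fold changes over the Kcn genes was 0.20, against 0.29 with all libraries. Then 5 Kcn genes had an unadjusted limma p under 0.05, beside 3.34% of all genes, and 2 of them, Kcna1 among these, were also among the 6 of the full comparison. The others were Kcnf1 at -0.22, Kcng1 at -0.46 and Kcnn2 at -0.21. Kcna1 was then at -0.25 and Kcnma1 at -0.36.

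Reads from overlapping genes may be shared, since the strand setting of the counting is not given in the sources used here. Of the 94 Kcn genes 26 share exonic bases with a gene on the opposite strand, among them Kcnma1, Kcnj3, Kcnj9, Kcnk1, Kcnt2 and Kcnh7, the last with the coding gene Gca. Kcna1, Kcna2 and Kcnn3 share none. Of the genes on the same strand, Kcnab2 and Kcnk4 overlap another gene (2 of 94).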

How the data were processed

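RNA was sequenced from 4 hDISC1AA/+ and 3 WT prefrontal cortex samples. The table deposited by the authors gives 1 signal value per gene and library, and every value above 0 was a whole multiple of 1 step per library (100% of values, within 0.01 reads). The values are thus gene counts divided by 1 size factor, and dividing by the step recovered whole reads. The tools Trimmomatic 0.39, HISAT2 2.1.0, HTSeq 0.6.1 and DESeq2 1.26.0 and the build mm10 are named, with no role, per the submitters' processing notes. Libraries followed the titles; 1 column matched only a group. Rows without a gene identifier (0.012% to 0.0169% of the values) were left out.

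The tested genes were the 17670 that reached a normalized count of 10 in 3 or more libraries. Their log2 values, with 1 added before the log, were fitted in limma 3.58.1 (R 4.3.3) with trend and robust options, and two-sided p-values were adjusted by Benjamini-Hochberg. Fold changes on that scale understate the change of low genes, and the number of libraries limits the precision. EdgeR 4.0.16 and DESeq2 1.42.0 were run on the recovered reads as alternatives, besides other scalings, filters, pseudocounts, a GC and length correction and omitted libraries. The methods were tested on simulated counts with 200 changed genes. Genes named by rule were, per family, the 3 with the highest level per length and the 3 with the smallest p, and members of the 10 subunit pairs. Other genes, such as Kcnc2, Kcnc4, Kcnk3 and Kcng1, were named outside that rule. Genes with non-overlapping groups and those far from the rest in 1 library were named after their values were seen. The Kcn rule, families, pairs and partner list were chosen with earlier results of these data known. Results of a few genes are not reported here, though counts over the family include them. Gene coordinates and symbols come from GENCODE M21 on GRCm38, the assembly that mm10 names.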

Additional observations from a re-analysis of the deposited data

Results flagged for a closer look

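In 5 of the 82 tested Kcn genes (6.1%) the normalized count of 1 hDISC1AA/+ library lay so far from the other 3 that its gap to the nearest passed the 95% limit of Dixon's test for 4 samples. Chance gives about 1 such group in 20, and 7.98% of all tested genes met the same limit. Of the 5, 3 were in replicate 1. Kcnj3 had 1688.1 there, against 5105 to 5327 in the other hDISC1AA/+ libraries and 4667 to 5625 in WT. Kcnt2 had 848.3 there, against 1817 to 1894 in the other hDISC1AA/+ libraries and 1531 to 2250.2 in WT. Kcnk12 had 794.4 there, against 436 to 474 in the other hDISC1AA/+ libraries and 379 to 578 in WT. Kcnip2 had 4905.7 in hDISC1AA/+ replicate 3, against 5263 to 5324 in the others and 3647 to 5119.7 in WT. Kcns2 had 1276.7 in hDISC1AA/+ replicate 4, against 960.2 to 1010.1 in the others and 1011 to 1432 in WT. In WT, a group of 3, no such test was made.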

How the results depend on the processing

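The 0 calls among the Kcn genes, the 0 calls among the channel partners and the 0 calls among the subunit ratios held under each of the alternatives run (up to 19). The exact test of the ratios could not have passed the threshold with any library left out. The number of Kcn genes at an unadjusted p under 0.05 was 6 with all libraries. It was 3 with upper-quartile scaling and 13 with limma-voom and sample quality weights (7.66% of all genes). It was 1 to 10 with 1 library left out. Shares of all genes for that scaling and the omitted libraries are not given here, so those counts may only follow them. The median log2 fold change of the Kcn genes was -0.106 to -0.035 with 1 library left out. Of the 28 genes named here by rule, 15 kept their sign in all 19 alternatives, Kcna1, Kcna2, Kcnma1 and Kcnn3 among them. None of the genes had passed the test. The alternatives reuse the libraries in which these genes had a small p, so a kept sign is no separate support. No cause of a changed sign was tested. With quality weights the log2 fold change was -0.024 for Kcnc1, 0.031 for Kcnd2, 0.11 for Kcnip4, 0.0057 for Kcnj16, 0.027 for Kcnj3, -0.00892 for Kcnj9, -0.00942 for Kcnk12, 0.016 for Kcnk2 and 0.10 for Kcnt2. With the GC and length correction it was 0.069 for Kcnt2. Without both hDISC1AA/+ replicate 1 and WT replicate 1 it was -0.036 for Kcnc1, 0.023 for Kcnd2, 0.11 for Kcnip4, 0.073 for Kcnj16, 0.025 for Kcnj3, -0.040 for Kcnj9, -0.16 for Kcnk12, 0.034 for Kcnk2, 0.069 for Kcnmb4 and 0.029 for Kcns2. The log2 ratio differences without both were -0.34 for Kcnj6/Kcnj3, -0.065 for Kcnj9/Kcnj3 and 0.42 for Kcnmb4/Kcnma1. The edgeR median of the inward rectifiers was 0.00320. With 1 library left out, the log2 fold change ranged over -0.232 to 0.0028 for Kcnab2, -0.0027 to 0.214 for Kcnc1, -0.256 to 0.047 for Kcnd2, -0.248 to 0.119 for Kcnip4, -0.499 to 0.054 for Kcnj3, -0.310 to 0.014 for Kcnj4, -0.016 to 0.339 for Kcnk12, -0.240 to 0.011 for Kcns2 and -0.356 to 0.043 for Kcnt2. The ratio differences ranged over -0.056 to 0.089 for Kcnip4/Kcnd2, -0.020 to 0.161 for Kcnj16/Kcnj10, -0.314 to 0.361 for Kcnj6/Kcnj3 and -0.431 to 0.200 for Kcnmb4/Kcnma1. The median of the voltage-gated genes ranged over -0.095 to 0.022. No paired analysis was possible because the replicate numbers are only names in record order and 1 column has none. With 4 and 3 libraries, differences smaller than the confidence intervals given were not detectable, and Kcnk15, Kcnj15 and Kcnn4, all under a level of 1, have the widest intervals.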
